A study of Mus musculus with 10 samples.

Results

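The interferon-induced transmembrane genes Ifitm1, Ifitm2, Ifitm3 and Ifitm6 were followed in B220+ cells from pre-B colonies of mice with 2 intact copies or 1 intact copy of Hspa9, the gene of the mitochondrial chaperone mortalin. A gene was represented by the array probe set whose only annotated symbol is that gene, and where a symbol had several, the probe set was chosen by its measured level, as the one with the highest mean over the 10 arrays. All 4 genes were found among 19938 symbols with a row, and 3 of them were among the 14953 genes bright enough to be tested. Bone marrow of 5 Hspa9+/+ mice, littermates here called wild type, and of 5 Hspa9+/- mice, here called heterozygous, was grown separately in M3630 methylcellulose for 7 days without further treatment, and the sorted cells of each mouse went onto 1 Mouse Gene 1.0 ST array. The labels give no age, sex or strain, and do not say how the Hspa9 allele was disrupted or whether colonies of a mouse were pooled. Values are RMA expression on the log2 scale, on which 1 unit is a doubling, and every difference is heterozygous minus wild type, over 5 arrays per genotype (n = 5) unless arrays are said to be left out. The number of arrays limits the precision.

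IFITM proteins are small membrane proteins that hinder the fusion of enveloped viruses with the cell. Interferon binds its receptors, Janus kinases activate STAT proteins, and STAT and IRF factors bind interferon-stimulated response elements (ISRE) in promoters such as those of Ifitm genes. IFITM1 sits mainly at the cell surface, and IFITM3 acts mainly in endosomes. Stem and progenitor cells can express Ifitm genes without interferon, and Ifitm6 is known from myeloid cells.

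The members lie together on mouse chromosome 7, in the order Ifitm5, Ifitm2, Ifitm1, Ifitm3 and Ifitm6 in the RefSeq gene table of GRCm38.p6. Their promoters, from 250 bases before to 50 bases after the start that the promoter table uses, are shown because the ISRE is the element through which interferon acts on this family. They come from RefSeq (GRCm38.p6), matched by symbol for 4 of 4 genes, and are written 5′ to 3′ on the strand of the gene. Ifitm1 is at chr7:140967826-140968125 (plus strand), Ifitm2 at chr7:140955912-140956211 (minus strand), Ifitm3 at chr7:141010695-141010994 (minus strand) and Ifitm6 at chr7:141016843-141017142 (minus strand). Capitals mark matches to the ISRE core, taken as GAAA and GAAA with any 2 bases between them, or to the STAT motif TTCNNNGAA (GAS), searched on both strands.
Ifitm1: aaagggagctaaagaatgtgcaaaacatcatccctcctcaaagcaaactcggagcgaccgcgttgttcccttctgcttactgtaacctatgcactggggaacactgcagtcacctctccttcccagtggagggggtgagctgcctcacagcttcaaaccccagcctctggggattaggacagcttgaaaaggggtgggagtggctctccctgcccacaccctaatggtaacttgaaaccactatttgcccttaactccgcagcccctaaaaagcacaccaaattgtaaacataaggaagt
Ifitm2: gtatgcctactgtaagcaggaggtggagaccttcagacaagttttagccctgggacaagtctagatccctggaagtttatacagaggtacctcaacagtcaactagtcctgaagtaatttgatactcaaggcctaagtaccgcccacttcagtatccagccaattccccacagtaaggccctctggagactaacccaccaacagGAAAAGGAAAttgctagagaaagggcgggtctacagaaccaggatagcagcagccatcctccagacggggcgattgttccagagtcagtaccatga
Ifitm3: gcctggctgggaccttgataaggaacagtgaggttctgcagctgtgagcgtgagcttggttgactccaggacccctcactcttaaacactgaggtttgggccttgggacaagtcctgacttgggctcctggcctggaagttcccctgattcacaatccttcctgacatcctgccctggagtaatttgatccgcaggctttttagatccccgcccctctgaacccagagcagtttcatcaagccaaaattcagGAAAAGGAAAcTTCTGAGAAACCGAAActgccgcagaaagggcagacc
Ifitm6: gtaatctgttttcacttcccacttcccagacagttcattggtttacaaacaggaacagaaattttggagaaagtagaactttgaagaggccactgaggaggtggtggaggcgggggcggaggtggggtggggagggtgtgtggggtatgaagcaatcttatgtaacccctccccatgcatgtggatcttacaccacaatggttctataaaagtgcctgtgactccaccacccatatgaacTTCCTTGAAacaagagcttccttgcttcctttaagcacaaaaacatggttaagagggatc

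Counted from the start, with no position 0, the Ifitm2 promoter held the ISRE core at -46 to -37. Ifitm3 held it at 3 to 12 and again at 20 to 29, the latter overlapping a GAS match at 14 to 22. Ifitm6 held only a GAS match, at -10 to -2, and Ifitm1 had neither set of letters in this window. Over all 32851 promoters of 300 bases, 3.44% held the ISRE core and 8.3% the GAS letters. Among 32 promoters of the type I interferon-stimulated genes listed for the comparisons described here, 15 held the ISRE core, or 46.9%. The windows of Ifitm1 and Ifitm2 lie inside the spans RefSeq gives these genes (chr7:140967429-140969827 and chr7:140954837-140959686), so they belong to an inner start, and sequence before the outer start was not searched. A match describes the letters and is not a measured binding site.

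The sorted cells carried B lineage transcripts on every array. The mean of 11 measured B lineage markers (among them Cd79a, Vpreb1 and Pax5) ran from 10.75 to 10.97 in wild type and from 10.40 to 10.82 in heterozygous arrays. Hspa9 had a mean of 9.92 ± 0.378 (SD) in wild type and 9.18 ± 0.244 in heterozygous arrays (limma adjusted p over all genes 0.345), with heterozygous 1 (9.52) above wild type 1 (9.49). 2 arrays stood apart by myeloid markers: the mean of 14 monocyte and macrophage markers was 9.23 in wild type 1 and 9.69 in heterozygous 2. It was 7.63 in wild type 2, 5.76 to 5.91 in wild type 3 to 5 and 7.00 to 7.30 in the other heterozygous arrays. Ptprc, which encodes B220, was lowest in heterozygous 4 (8.33) and heterozygous 5 (7.89), and 9.35 to 10.07 elsewhere. In bulk samples such as these, more cells of a type and more RNA per cell cannot be told apart.

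Ifitm1, the surface member of the family, was about 2-fold brighter in heterozygous cells. Its values were 10.33, 10.31, 9.97, 9.54 and 9.65 in wild type 1 to 5, and 10.75, 10.68, 10.82, 11.13 and 11.50 in heterozygous 1 to 5. Every heterozygous array lay above every wild type array, with a gap of 0.35 between the nearest pair. The difference was 1.02 (SE 0.202), or 2.02-fold with a 95% interval of 1.49 to 2.76. The limma adjusted p over all genes was 0.222, so Ifitm1 did not pass the threshold of 0.05. It was already known to have one of the smallest p-values in these data when the genes were chosen, so this difference is a description. Over all genes, 0% passed the adjusted threshold and 1.47% had every heterozygous array above every wild type array.

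Ifitm2, a close relative that lies beside Ifitm1, had a similar mean difference with a wider spread among wild type mice. Its wild type values were 10.52, 9.996, 9.50, 8.91 and 8.44, and its heterozygous values were 10.43, 10.80, 10.28, 10.64 and 10.86. 4 of the 5 wild type arrays lay below every heterozygous array, and wild type 1 lay above 2 heterozygous arrays. The difference was 1.13 (SE 0.337), or 2.19-fold with a 95% interval of 1.31 to 3.66, and the limma adjusted p over all genes was 0.349. The wild type SD was 0.829 and the heterozygous SD 0.244.

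Ifitm3, the endosomal antiviral member, had the widest range of the 4 genes. Its wild type values were 10.71, 8.68, 8.39, 7.41 and 6.96, a 13.5-fold range, and its heterozygous values were 9.26, 10.78, 9.40, 9.58 and 9.94, a 2.87-fold range. Wild type 1 lay above 4 of the 5 heterozygous arrays, while the other 4 wild type arrays lay below all of them. The difference was 1.36 (SE 0.606), or 2.57-fold with a 95% interval of 1.02 to 6.47, and it did not pass (limma adjusted p over all genes 0.448). The groups therefore overlapped through wild type 1, one of the 2 arrays rich in macrophage markers.

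Ifitm6, the myeloid member, was dim, with a mean of 4.44 over all arrays against a cutoff of 4.52 for testing. Its values were 5.33, 4.18, 3.82, 3.90 and 4.10 in wild type and 3.98, 5.72, 4.13, 4.62 and 4.61 in heterozygous arrays. The highest array of each genotype was the one richest in macrophage markers, wild type 1 and heterozygous 2. The mean was 4.27 ± 0.610 (SD) in wild type arrays. It was 4.61 ± 0.679 in heterozygous ones, which is 0.35 higher and within the spread of either group. With dim rows kept, the limma adjusted p was 0.713.

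**Figure D1:**
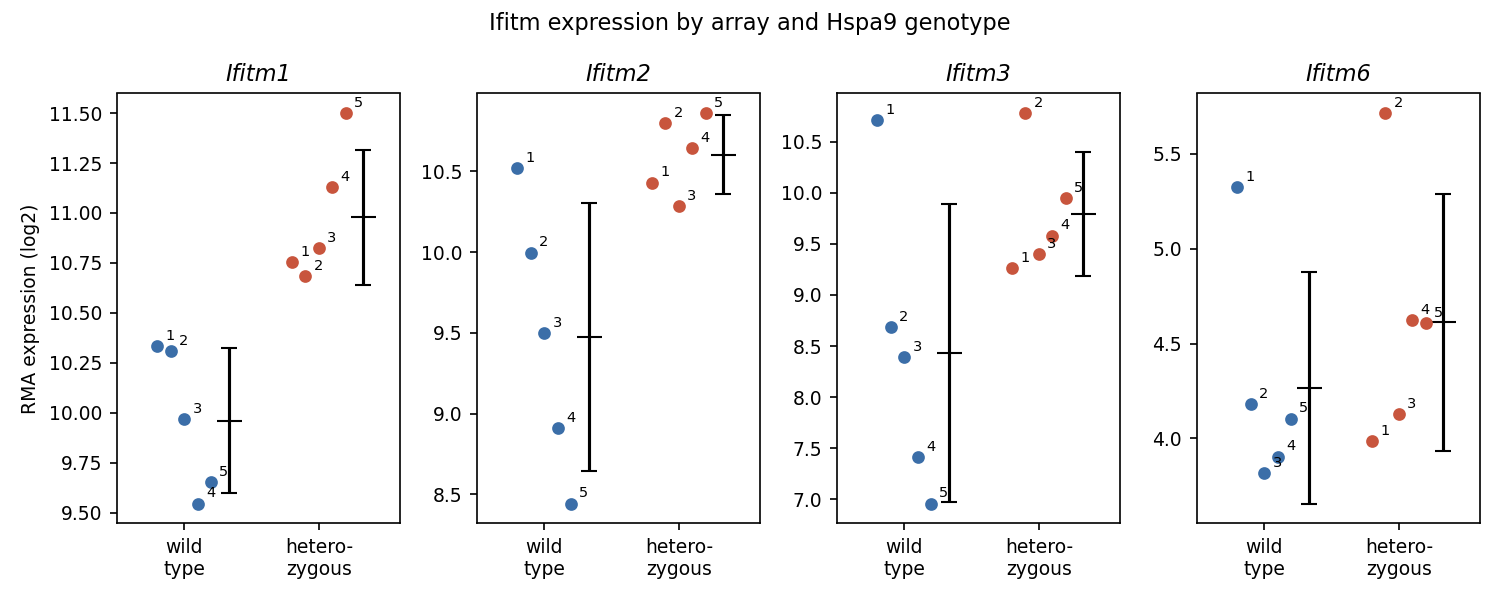
Expression of the 4 Ifitm genes on each array (vertical axes, log2 RMA units, a separate scale per gene) by Hspa9 genotype; numbers are replicate numbers, and black bars give the mean ± SD of 5 arrays. Ifitm1 is separated by genotype, Ifitm2 and Ifitm3 overlap through wild type 1, and Ifitm6 is highest in wild type 1 and heterozygous 2.

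At an unadjusted p under 0.05, the limma fit counted 3 of the 3 tested members as higher in heterozygous cells, where 6.79% of all genes tested were. The choice of members was made with these values known. The median difference over all genes tested was 0.06. The other probe sets of these genes gave like values: a second Ifitm1 probe set, with a mean over all arrays of 9.84 against 10.47 for the one used, had a difference of 0.98 (SE 0.199). The 2 further Ifitm2 probe sets, with means of 10.03 and 9.71 against 10.04, had differences of 1.32 (SE 0.371) and 1.05 (SE 0.318). Values of these probe sets followed those of the one used with r of 0.99 to 1.00 over the 10 arrays. Ifitm genes are near copies of each other. How far their probe sets share signal, and whether some of the several Ifitm1 and Ifitm2 probe sets, the ones used included, match pseudogenes, is not known here.

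The spread of the members followed that of other cells' markers to different degrees. Of 54 relations computed over the 10 arrays, between members and with Hspa9 and 11 list means, 27 had a permutation p of r under 0.05 after Benjamini-Hochberg adjustment. Most relations below are given with Pearson's r, Spearman's rho, their permutation p, and r without the 2 arrays farthest from the median of the second measure. Correlations after each genotype's mean was subtracted are called within-genotype and are given without a test. The permutations took all 10 arrays together, so a genotype difference in both measures enters r and its p.

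Among the members, Ifitm2 and Ifitm3 were most alike, with r = 0.94 (permutation p = 6e-05, adjusted 0.00162) and rho = 0.93 (permutation p = 0.00039, adjusted 0.00621). That r was 0.82 without wild type 4 and 5, and 0.93 within genotype. Ifitm1 and Ifitm2 had r = 0.89 (permutation p = 0.00029, adjusted 0.00392) and rho = 0.84 (permutation p = 0.0035, adjusted 0.017), with r = 0.79 without wild type 4 and 5 and 0.76 within genotype. Ifitm1 and Ifitm3 had r = 0.72 (permutation p = 0.0185, adjusted 0.0417) and rho = 0.70 (permutation p = 0.0303, adjusted 0.0655), but r fell to 0.35 without wild type 4 and 5, so that relation rests on those arrays. Ifitm3 and Ifitm6 had r = 0.80 (permutation p = 0.00618, adjusted 0.0196) and rho = 0.85 (permutation p = 0.00304, adjusted 0.0164), with 0.61 without wild type 1 and heterozygous 2. Ifitm2 and Ifitm6 had r = 0.61 (permutation p = 0.0537, adjusted 0.0853) and rho = 0.76 (permutation p = 0.0153, adjusted 0.0389), with 0.63 without the same arrays. Ifitm1 and Ifitm6 were the least alike pair, at r = 0.37 (permutation p = 0.296, adjusted 0.355) and rho = 0.52 (permutation p = 0.134, adjusted 0.176), and 0.78 without the same arrays.

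Against the macrophage marker mean, r was highest for Ifitm6 and Ifitm3 and lowest for Ifitm1, and the differences between these correlations were not tested. For Ifitm6, r was 0.89 (permutation p = 0.00142, adjusted 0.00999) and rho 0.70 (permutation p = 0.0295, adjusted 0.0655), with 0.52 without wild type 1 and heterozygous 2. For Ifitm3, r was 0.88 (permutation p = 0.002, adjusted 0.0105) and rho 0.76 (permutation p = 0.0152, adjusted 0.0389), with 0.79 without those arrays and 0.89 within genotype. For Ifitm2, r was 0.73 (permutation p = 0.0198, adjusted 0.0418) and rho 0.60 (permutation p = 0.0731, adjusted 0.120), with 0.83 without the same arrays. For Ifitm1, r was 0.42 (permutation p = 0.226, adjusted 0.305) and rho 0.38 (permutation p = 0.278, adjusted 0.341), and 0.77 without them. The differences of the macrophage markers themselves lay above 0 for 13 of 14, with a median difference of 0.76, and 0 of them passed over all genes. Lyz2, the macrophage lysozyme, was at 1.45 (SE 0.741), the receptor Csf1r at 1.26 (SE 0.800) and the pore-forming protein gene Mpeg1 at 1.37 (SE 0.896).

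**Figure D2:**
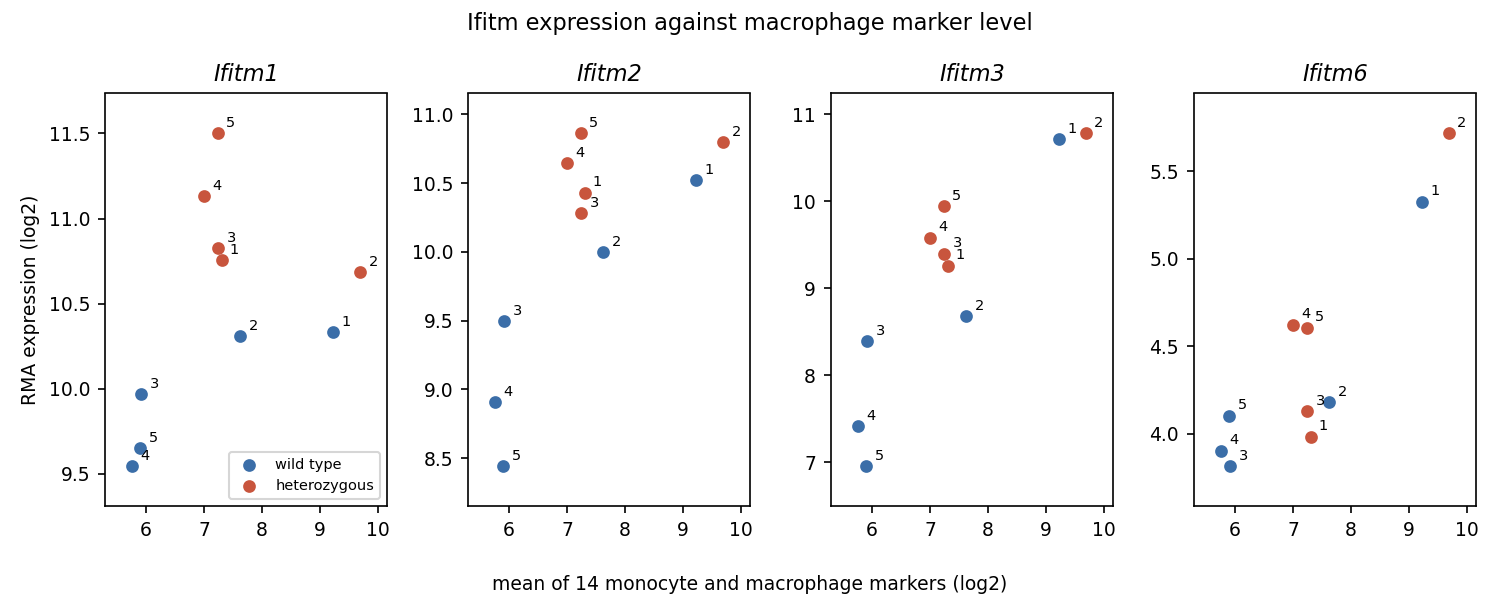
Expression of each Ifitm gene (vertical axes, log2) against the mean of 14 monocyte and macrophage markers (horizontal axes, log2) on the 10 arrays, numbered by replicate. Wild type 1 and heterozygous 2 lie to the right in every panel and are the highest arrays for Ifitm6, but not for Ifitm1, whose highest arrays are heterozygous 4 and 5.

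Once the macrophage marker mean entered the fit as a covariate, differences of 0.95 (SE 0.203) for Ifitm1, 0.85 (SE 0.237) for Ifitm2 and 0.76 (SE 0.294) for Ifitm3 were left, and -0.00040 for Ifitm6. The limma adjusted p over all genes was then 0.113, 0.195 and 0.277 for the 3 tested members. Without wild type 1 and heterozygous 2 the differences were 1.18, 1.34 and 1.68, so the direction did not rest on these arrays. Leaving them out did not level the macrophage markers. Their mean was then 7.63 in wild type 2 and 5.91, 5.76 and 5.90 in wild type 3 to 5, against 7.00 to 7.30 in heterozygous arrays. For Ifitm6 the difference was 0.33 without both wild type 1 and heterozygous 2, 0.61 without wild type 1 alone and 0.07 without heterozygous 2 alone.

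Markers of other cell types were set against the members in the same way. The 5 measured plasmacytoid dendritic cell markers, of cells that also carry B220, all had differences above 0 (median 1.06), 0 of them passed over all genes, and their mean ran from 6.01 to 7.42 in wild type and 7.15 to 8.64 in heterozygous arrays. Siglech, a surface lectin of these cells, was at 1.63 (SE 0.477), Bst2, itself interferon-induced, at 0.72 (SE 0.246) and Pacsin1 at 0.46 (SE 0.159). With their mean as a covariate the differences were 0.92 (SE 0.280) for Ifitm1, 0.50 (SE 0.377) for Ifitm2 and 0.05 (SE 0.610) for Ifitm3. Against that mean, Ifitm1 had r = 0.65 (permutation p = 0.0426, adjusted 0.0703) and rho = 0.52 (permutation p = 0.133, adjusted 0.176), with 0.65 without wild type 4 and heterozygous 2 and 0.17 within genotype. Ifitm2 had r = 0.80 (permutation p = 0.00519, adjusted 0.0187) and rho = 0.53 (permutation p = 0.122, adjusted 0.171), with 0.75 without these arrays and 0.61 within genotype. Ifitm3 had r = 0.80 (permutation p = 0.00562, adjusted 0.0190) and rho = 0.65 (permutation p = 0.0485, adjusted 0.0970), with 0.67 without them and 0.69 within genotype. Ifitm6 had r = 0.65 (permutation p = 0.0430, adjusted 0.0703) and rho = 0.53 (permutation p = 0.121, adjusted 0.171), with 0.27 without them. The r therefore passed for Ifitm2 and Ifitm3, and the rho for none of the 4 genes. The part of these cells in the values of the members was not tested beyond the covariate.

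The T cell and NK cell list followed Ifitm1 most closely, with r = 0.95 (permutation p = 6e-05, adjusted 0.00162) and rho = 0.95 (permutation p = 0.00016, adjusted 0.00432), 0.92 without wild type 5 and heterozygous 5 and 0.80 within genotype. Of its 10 measured members 4 were bright enough to be tested, and 0 passed over all genes. They were the granule protein gene Nkg7 (0.68, SE 0.149), the surface glycoprotein gene Thy1 (0.71, SE 0.211), the receptor subunit gene Cd3e (0.38, SE 0.119) and Il2rb. The other 6, Cd3d, Cd3g, Klrb1c, Gzma, Gzmb and Ncr1, lay at or below the dim cutoff. In wild type arrays Nkg7 (4.97), Cd3e (5.02) and Il2rb (4.54) had means below the array medians of 5.38 to 5.49, and Thy1 was at 8.29. Whether the mean of the 4 follows the number of T cells and NK cells is not known here. The mean of the 4 ran from 5.46 to 5.89 in wild type and 5.999 to 6.41 in heterozygous arrays, so it separated the genotypes as Ifitm1 did. With it as a covariate the differences were 0.08 (SE 0.293) for Ifitm1, -0.16 (SE 0.583) for Ifitm2 and -0.20 (SE 1.21) for Ifitm3, with limma adjusted p of 1.00 for each, and the share of genotype and of these markers cannot be told apart in that fit. Their part in the Ifitm1 values was not tested otherwise.

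Markers of the stage before, the early progenitor and pro-B list, had a median difference of 0.33 over 9 tested members, 7 of them above 0 and 0 past the threshold. Dntt, the terminal transferase of pro-B cells, was at 1.49 (SE 0.443), Meis1, a progenitor transcription factor, at 0.33 (SE 0.114) and the stem cell factor receptor Kit at 0.46 (SE 0.198). With that list as a covariate Ifitm1 was at 0.80 (SE 0.302), Ifitm2 at 0.39 (SE 0.421) and Ifitm3 at 0.05 (SE 0.762). With the mean of this list Ifitm1 had r = 0.74 (permutation p = 0.0149, adjusted 0.0350) and rho = 0.78 (permutation p = 0.0101, adjusted 0.0302), with 0.38 without wild type 4 and 5 and 0.31 within genotype. For Ifitm2, r was 0.82 (permutation p = 0.00406, adjusted 0.0157) and rho 0.60 (permutation p = 0.0725, adjusted 0.120), with 0.43 without these arrays and 0.61 within genotype. For Ifitm3, r was 0.75 (permutation p = 0.0130, adjusted 0.0319) and rho 0.62 (permutation p = 0.0595, adjusted 0.106), with 0.30 without them and 0.60 within genotype. All 3 relations thus rest on wild type 4 and 5. For Ifitm6, r was 0.33 (permutation p = 0.362, adjusted 0.407) and rho 0.42 (permutation p = 0.231, adjusted 0.290), with 0.06 without them.

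Of the remaining marker lists, 0 members passed over all genes. The neutrophil lineage had a median difference of 0.37 (Mmp9 0.24, Ctsg 0.38, Cebpe 0.26), and Ifitm6 followed its mean with r = 0.95 (permutation p = 0.00021, adjusted 0.00378) and rho = 0.89 (permutation p = 0.00123, adjusted 0.00949), at 0.73 without wild type 1 and heterozygous 2. Ifitm3 also passed with that mean, at r = 0.84 (permutation p adjusted 0.0105) and rho = 0.92 (permutation p adjusted 0.00621). With the neutrophil mean as a covariate Ifitm1 was at 0.97, Ifitm2 at 0.85, Ifitm3 at 0.65 and Ifitm6 at -0.14. Megakaryocyte genes had a median difference of 0.40 (Gp9 0.11, Pf4 1.05, Ppbp 0.69), stroma 0.17 (Col3a1 0.29, Col1a1 0.20, Col1a2 0.22) and erythroid genes 0.19 (Slc4a1 0.19, Epor 0.19, Car1 0.22). The B lineage list was at -0.14 (Cd22 -0.98, Rag1 -0.79, Igll1 0.28). Its mean had r of -0.82, -0.805, -0.77 and -0.73 with Ifitm1, Ifitm2, Ifitm3 and Ifitm6 (permutation p adjusted 0.0157, 0.022, 0.0265 and 0.0418). Its rho with Ifitm2 was -0.96 (permutation p adjusted 0.00324). The megakaryocyte mean passed by r with Ifitm3 (0.84, permutation p adjusted 0.0154) and Ifitm6 (0.93, permutation p adjusted 0.00999). Without wild type 1 and heterozygous 2 these r were 0.76 and 0.57. The stroma mean passed with Ifitm1 by r (0.76, permutation p adjusted 0.0297) but not by rho (0.71, permutation p adjusted 0.0630). That r was 0.61 without wild type 3 and heterozygous 5, and 0.415 within genotype. No other r of these lists with a member passed. The wild type means of Ctsg (4.34) and Car1 (4.43) lay below the 4.52 cutoff for testing. Their heterozygous means were 4.73 and 4.65, so the differences of these 2 genes lie near the floor. Mmp9 (4.68), Ppbp (4.86), Cebpe (5.19) and Epor (5.23) had wild type means below the array medians of 5.38 to 5.49. Those of Col3a1 (5.41), Gp9 (5.44) and Slc4a1 (5.47) lay within that range, so differences of these genes also come from rows of low signal. Wild type means of Pf4, Col1a1, Col1a2 and the named B lineage genes lay above it.

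Type I interferon-stimulated genes as a list had nearly the same level in both genotypes. Of 38 listed type I interferon-stimulated genes 30 were tested, 0 passed over all genes in either direction, and 17 were above and 13 below 0. Of all genes tested, 61.3% lay above 0. Their median difference was 0.04, next to 0.06 over all genes tested. The mean of the list was 6.46 ± 0.179 (SD) in wild type and 6.43 ± 0.206 in heterozygous arrays, with full overlap. The members of smallest p were Sp100 of nuclear bodies at -0.84 (SE 0.191), Samd9l at -1.40 (SE 0.415) and Bst2, tetherin, at 0.72 (SE 0.246). Lgals3bp at 1.26 (SE 0.677), named after its value was seen, was the 1 gene of the 30 that lay as far above 0 as Ifitm1, and the difference of Samd9l was larger in size in the opposite direction. The antiviral genes Ifit1, Ifit3, Mx1 and Mx2 lay at or below the dim cutoff in these cells.

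**Figure D3:**
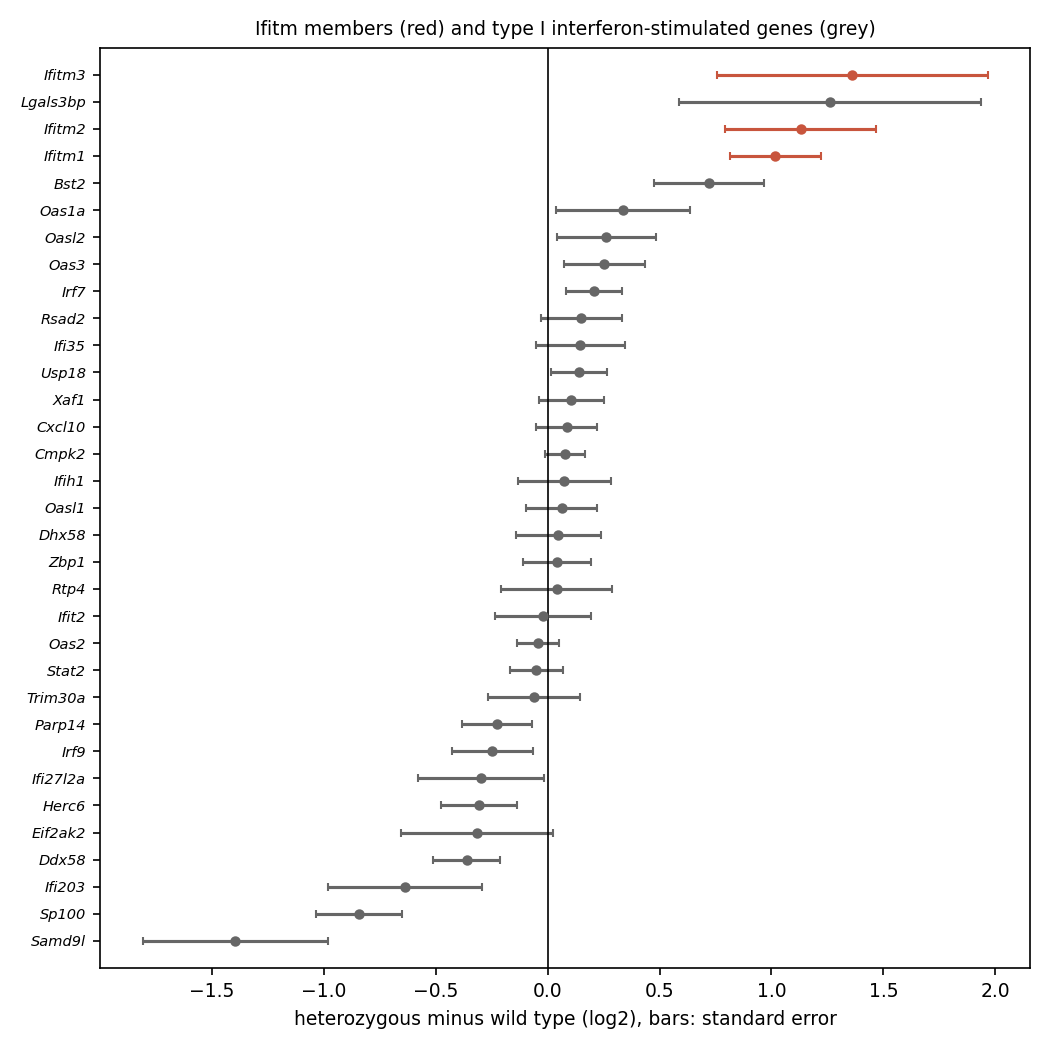
Heterozygous minus wild type difference (horizontal axis, log2; bars are the SE) of the 3 tested Ifitm genes in red and the 30 tested type I interferon-stimulated genes in grey, ordered by difference. Ifitm1, Ifitm2 and Ifitm3 lie from 1.02 to 1.36, while the grey genes run from -1.40 to 1.26 on both sides of 0.

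Across arrays, Ifitm1 had r = -0.07 with the mean of that list (permutation p = 0.851, adjusted 0.851) and rho = -0.19 (permutation p = 0.607, adjusted 0.630), and -0.24 without wild type 1 and heterozygous 2. For Ifitm3, r was 0.58 (permutation p = 0.0756, adjusted 0.113) and rho 0.37 (permutation p = 0.295, adjusted 0.354), and -0.09 without these 2 arrays. For Ifitm6, r was 0.74 (permutation p = 0.0209, adjusted 0.0418) and rho 0.33 (permutation p = 0.347, adjusted 0.399), and -0.44 without them, so that relation rests on these arrays. The list's own highest arrays were heterozygous 2 (6.77) and wild type 1 (6.74).

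Genes induced by interferon gamma had a median difference of 0.21 over 10 tested members, 7 above and 3 below 0, with 0 past the threshold. The immunoproteasome subunits Psmb9 at 0.49 (SE 0.128) and Psmb8 at 0.38 (SE 0.137) lay above 0, and Ciita, the master regulator of MHC class II, was at -0.60 (SE 0.219). With the mean of this list Ifitm1 had r = 0.61 (permutation p = 0.0603, adjusted 0.0930) and rho = 0.58 (permutation p = 0.0885, adjusted 0.141), with 0.71 without wild type 2 and heterozygous 4 and 0.53 within genotype. The r of Ifitm2 was 0.45, that of Ifitm3 0.28 and that of Ifitm6 0.16 (permutation p adjusted 0.274, 0.465 and 0.678). Interferon receptors and signalling genes had a median of 0.08 over 14, with 0 past the threshold. Among them Irf8, a transcription factor of B and myeloid cells, was at 0.40 (SE 0.175), the feedback inhibitor Socs3 at 0.35 (SE 0.184) and the kinase Jak2 at -0.32 (SE 0.236).

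Genes that modify or bind IFITM proteins had a median of 0.10 over 8 tested members, 5 above and 3 below 0, with 0 past the threshold. The palmitoyltransferase Zdhhc20, which lipidates IFITM3, was at -0.61 (SE 0.252), the membrane contact protein gene Vapa at -0.22 (SE 0.136) and the tetraspanin Cd81 at 0.21 (SE 0.133). Other genes of the CD225 domain family, to which IFITM proteins belong, had smaller differences. Of 8 measured 7 were tested, and all 7 lay above 0, as did 61.3% of all genes tested. They ran from 0.03 to 0.27 with a median of 0.14, and 0 passed. Their wild type means ran from 5.07 (Syndig1) to 6.84 (Tmem91), against 8.43 to 9.96 for Ifitm1, Ifitm2 and Ifitm3. The sizes of the differences are therefore not compared at like levels. Prrt1 was at 0.27 (SE 0.102), Ifitm7 at 0.16 (SE 0.121) and Syndig1 at 0.14 (SE 0.114). Ifitm5, the bone member at the edge of the cluster, was at 0.15 (SE 0.119) and Ifitm10 at 0.03 (SE 0.125).

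The genes that flank the cluster were measured as well. On the Ifitm5 side, Nlrp6, an inflammasome sensor, was at 0.28 (SE 0.102) and the glycosidase Pgghg at 0.36 (SE 0.198). On the Ifitm6 side, the glycosyltransferase B4galnt4 was at 0.04 (SE 0.137) and plakophilin Pkp3 at 0.09 (SE 0.113). None of these 4 passed over all genes (limma adjusted p 0.384 to 0.901), and in each the genotypes overlapped.

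By Pearson's r over the 10 arrays among genes tested, the genes most like Ifitm1 were Nrxn2 (0.98), Dhcr7 of the last step of cholesterol synthesis (0.98), Xbp1 of the secretory programme (0.96), the acetoacetyl-CoA synthetase Aacs (0.96) and Nt5dc2 (0.96). Within genotype they were Nrxn2 (0.96), Smtn (0.95), Dhcr7 (0.95), Aacs (0.95) and Med27 (0.95). For Ifitm2 they were Spint2 (0.97), the endothelial and progenitor receptor Eng (0.97), Dntt (0.97), the sulfatase Sulf2 (0.96) and Maged1 (0.96). For Ifitm3 they were Maged1 (0.98), Parvb (0.98), the fatty acid desaturase Fads1 (0.97), Pttg1ip (0.97) and Plxnd1 (0.97). For Ifitm6 they were Map7d1 (0.99), the acyltransferase Agpat2 (0.98), Nenf (0.98), Plxna1 (0.98) and Spsb2 (0.98). These are the highest of many correlations over the same arrays and are descriptions.

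Hspa9 had negative correlations with the 4 members across arrays, and r passed for 3 of them. With Ifitm1, r was -0.86 (permutation p = 0.00148, adjusted 0.00999) and rho -0.82 (permutation p = 0.00516, adjusted 0.0199), and -0.84 without wild type 3 and 4. With Ifitm2, r was -0.85 (permutation p = 0.00208, adjusted 0.0105) and rho -0.90 (permutation p = 0.00077, adjusted 0.00832), and -0.88 without these arrays. With Ifitm3, r was -0.80 (permutation p = 0.00669, adjusted 0.0201) and rho -0.88 (permutation p = 0.00168, adjusted 0.0113), and -0.80 without them. With Ifitm6, r was -0.68 (permutation p = 0.0293, adjusted 0.0566) and rho -0.84 (permutation p = 0.00423, adjusted 0.0176), and -0.56 without them. Within genotype r was -0.59 for Ifitm1, -0.67 for Ifitm2, -0.69 for Ifitm3 and -0.78 for Ifitm6. The genotypes differ in Hspa9 by design, and the macrophage-rich arrays wild type 1 and heterozygous 2 had the lowest Hspa9 of their groups, 9.49 and 8.92.

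The Ifitm1 difference lay above 0 under each setting tried, some of which could not change it, up to 1.18 without the 2 macrophage-rich arrays. With the T cell and NK cell covariate it was 0.08 (SE 0.293), smaller than its SE, so no direction can be read there. Weighting arrays by their quality, which gives the lowest weights to wild type 1, heterozygous 2, heterozygous 5 and wild type 2, gave 1.09 (SE 0.162) and a limma adjusted p of 0.0253, past the threshold, over the 25 settings' range of 0.0253 to 1.00. Without heterozygous 4 and 5, the arrays of lowest Ptprc, the differences were 0.79 (SE 0.199) for Ifitm1, 1.03 (SE 0.429) for Ifitm2 and 1.38 (SE 0.783) for Ifitm3.

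**Figure D4:**
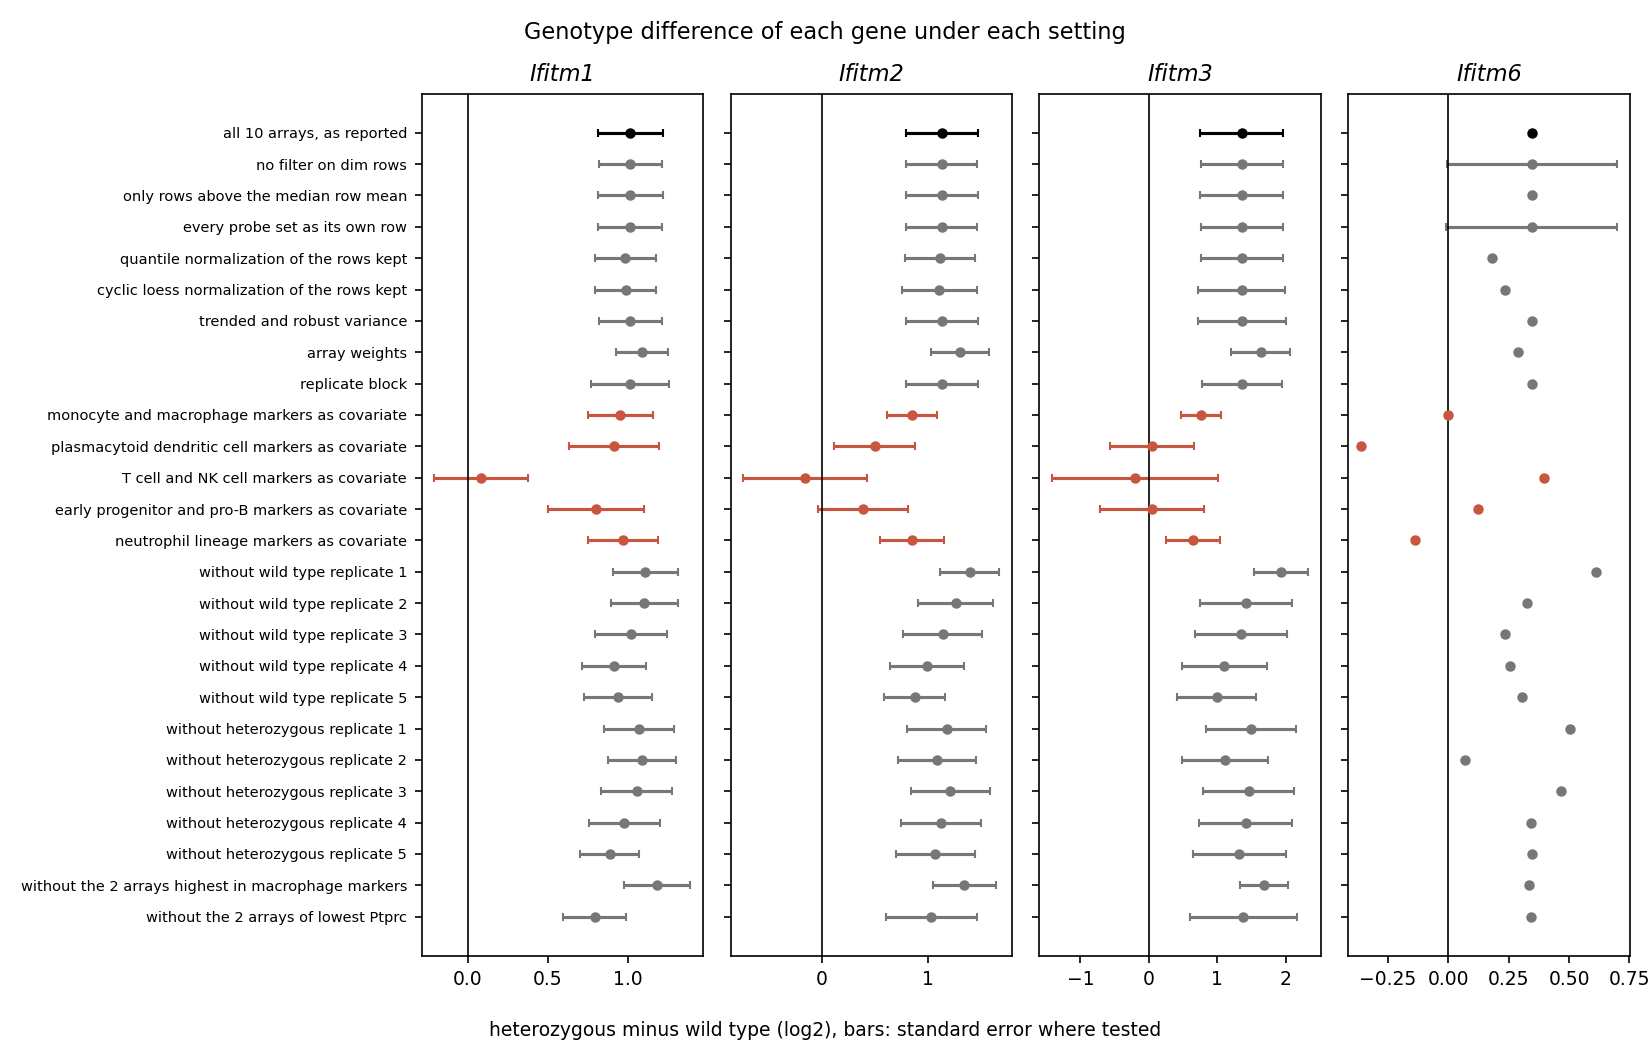
Heterozygous minus wild type difference of each gene (horizontal axes, log2, a separate scale per gene; bars are the SE where a gene was tested) with all 10 arrays (black), under other processing (grey) and with a marker list mean as a covariate (red). Ifitm1, Ifitm2 and Ifitm3 stay above 0 except where the T cell and NK cell covariate takes Ifitm2 to -0.16 and Ifitm3 to -0.20. Ifitm6 is above 0 in 22 of the 25 other settings. The macrophage, plasmacytoid and neutrophil covariates take it to between -0.36 and -0.00040. Settings that change only the rows kept, the variance model or the replicate block repeat the black value by construction.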

How the data were processed

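The authors deposited log2 values per probe set from RMA, run in Affymetrix Expression Console per the labels. No version, build or annotation was given in the sources used here. Since RMA subtracts background, brings arrays to 1 distribution and summarises probes, a shift of most genes would be largely removed. Of 35556 probe sets 21789 had 1 symbol in the platform annotation, 1621 had several and 12146 were not listed. The brightest probe set per symbol was kept (19938), and rows at or below the 25th percentile (4.52) were left out, leaving 14953 genes. Array medians ran from 5.38 to 5.49.

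The genotype fit used lmFit and eBayes of limma 3.58.1 (R 4.3.3), with Benjamini-Hochberg adjustment over all genes and a threshold of 0.05. This pipeline was tested on simulated data with independent noise per gene and no deviant arrays. That test therefore does not cover arrays that stand apart, such as those rich in macrophage markers. Permutation p-values of correlations are two-sided, with 100000 resamples (numpy 2.4.6). The p-values measure the spread between mice. The members and lists were chosen with earlier results of these data known. Named genes were the members, Hspa9, the 3 of smallest p per list, the 5 most alike per member, the genes flanking the cluster, and Lyz2 and Csf1r; others, such as Ptprc, were chosen after their values were seen. Covariates other than macrophage markers, and leaving out heterozygous 4 and 5, were added after seeing the data.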

Additional observations from a re-analysis of the deposited data

Results flagged for a closer look

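In 44 sets of 5 arrays, 6 had an array whose gap to its neighbour exceeded 0.71 of the range; chance gives about 1 in 20. Ifitm6 was 5.33 in wild type 1 against 4.18 in the next wild type array. In heterozygous 2, Lyz2 was 12.9 against 11.8 in the next array, Csf1r 9.47 against 7.59, the monocyte and macrophage mean 9.69 against 7.30 and the neutrophil lineage mean 7.44 against 6.05. The megakaryocyte mean was 7.54 in wild type 1 against 5.63.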

How the results depend on the processing

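Over 25 alternative settings each, the difference stayed above 0 for Ifitm1 in 25, for Ifitm2 and Ifitm3 in 24 and for Ifitm6 in 22. Settings that change only the rows kept, the variance model or the replicate block repeat the main difference by construction. Their part of these counts was therefore fixed in advance. With the T cell and NK cell covariate, Ifitm1 was at 0.08 (SE 0.293), Ifitm2 at -0.16 and Ifitm3 at -0.20. Ifitm6 moved to -0.36 with the plasmacytoid dendritic cell covariate. Array weights took Ifitm1 to 1.09 and past the threshold, left Ifitm2 at an adjusted p of 0.0508 in limma, and called 1 interferon gamma induced gene. Leaving out 1 array gave 0.887 to 1.11 for Ifitm1, 0.873 to 1.39 for Ifitm2, 0.991 to 1.93 for Ifitm3 and 0.0692 to 0.610 for Ifitm6; each highest value came without wild type 1. The number of genes called by limma, 0 in the main comparison (1650 at an unadjusted p under 0.05), was 137 with array weights, 1 with the plasmacytoid dendritic cell covariate, 26 without both macrophage-rich arrays, and 0 to 22 without 1 array (22 without wild type 1, 3 without heterozygous 2). The cause was not tested. The replicate number as a replicate block left Ifitm1 at 1.02 (SE 0.245, limma adjusted p 0.555), Ifitm2 at 1.13 and Ifitm3 at 1.36, called 0 genes, and changed no call; same-numbered arrays share only a number, with correlations of their deviations from -0.53 to 0.53. 10 arrays and a dim Ifitm6 limit what can be seen.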
